A study of Mus musculus with 6 samples.

Results

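The chemokine CXCL12 and its receptors CXCR4 and ACKR3, encoded by Cxcl12, Cxcr4 and Ackr3, were followed through the cell types of the mouse lung and brain cortex in 6 single-cell RNA-seq libraries. The 3 genes were taken by symbol from the 56884 genes of the count matrices, and all 3 were found in every library. CXCL12 is a secreted chemokine that binds heparan sulfate and guides stem cells, leukocytes and growing vessels. CXCR4 is its signaling receptor, which acts through inhibitory G proteins, and ACKR3 is an atypical receptor that recruits arrestins and removes CXCL12 from the extracellular space. In blood vessels the ligand, the signaling receptor and the scavenging receptor are typically carried by different cells, and the 3 genes are known for roles in arterial growth, vessel sprouting and the homing of cells to perivascular sites.

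Each library held cells from 2 littermate mice of 1 genotype. The lung libraries came from Bdnf lox/lox controls, Bdnf iPCKO mutants, Hgf lox/lox controls and Hgf iPCKO mutants at postnatal day (P) 21. The cortex libraries came from Nodal lox/lox controls and Nodal iPCKO mutants at P12. The iPCKO mutants carried Pdgfrb(BAC)-CreERT2, a transgene active in mural cells, that is pericytes and vascular smooth muscle cells, with limited recombination in fibroblasts of low PDGFRβ, while the controls carried the same loxP alleles without CreERT2. Both mutants and controls were given 50 µg tamoxifen from P1 to P3. Lung cells were depleted of CD45+ cells and erythrocytes, whereas cortical cells were freed of meninges and myelin debris and kept their CD45+ cells. With 1 library per genotype, no test of a mutant against its control was possible, and such differences are given as log2 ratios with intervals that cover counting error only. Unique molecular identifiers (UMIs) were summed per library and cell class and expressed as counts per 1e+06 UMIs of that class (CPM).

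The libraries held 33889545 to 186701379 UMIs, and 3002 to 23836 cells per library passed the filters, with a median of 2850 to 8060 UMIs per cell. The Hgf libraries were the shallower pair of lung libraries. Cell classes were assigned from fixed marker lists that contain none of the 3 genes, and 80.3% to 94.3% of the cells per library took a single class. Between 20 and 431 barcodes were shared by a pair of libraries, at most 2.93% of the smaller library. Barcodes with 10 to 100 UMIs, which hold mostly free RNA, contained 54.1 to 91.2 CPM of Cxcl12, 10.1 to 21.7 CPM of Cxcr4 and 64.3 to 94.0 CPM of Ackr3 in the lung, and 211 to 311, 26.6 to 29.9 and 67.3 to 80.5 CPM in the cortex. Free RNA makes up only part of the UMIs of a cell, so these levels are a reference and not a limit of detection. Cortical astrocytes, for example, held 3.51 and 6.18 CPM of Cxcl12. A class below these levels may hold free RNA, RNA of its own or both, and the part of free RNA was not tested. Of the targeted genes, Nodal had 183 UMIs in the 255 cortical pericytes of the control (123 CPM) and 0 in the 384 of the iPCKO mutant, Hgf had 23 UMIs in lung pericytes of its control (149 CPM) and 10 in those of its mutant (29.5 CPM), and Bdnf had 38 UMIs in smooth muscle cells of its control (63.5 CPM) and 36 in those of its mutant (28.2 CPM), with 5 and 3 UMIs in pericytes, so that the labels of the Bdnf pair could not be checked in pericytes at this depth.

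In the GRCm39 assembly, Cxcl12 (ENSMUSG00000061353) lies on the plus strand of chromosome 6 from 117144945 to 117158328, with 4 exons in its canonical transcript. Cxcr4 (ENSMUSG00000045382) lies on the minus strand of chromosome 1 from 128515936 to 128520044, with 2 exons. Ackr3 (ENSMUSG00000044337) lies on the plus strand of the same chromosome from 90131689 to 90144473, also with 2 exons in its canonical transcript. No other annotated gene overlaps any of the 3 loci, and reads shared with another gene played almost no part, since a single non-integer entry was found among all their values, for Cxcr4 in the Bdnf iPCKO library.

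In the lung, Cxcl12 was highest in arterial ECs, followed by adventitial fibroblasts, the connective tissue cells around large vessels and airways, and by general capillary (gCap) ECs. Arterial ECs held 2402 CPM in the Bdnf control, 1935 CPM in the Bdnf iPCKO mutant, 904 CPM in the Hgf control and 652 CPM in the Hgf iPCKO mutant. Adventitial fibroblasts held 752, 479.7 and 488 CPM in the first 3 of these libraries and 175 CPM in the Hgf iPCKO mutant. The gCap ECs, which maintain the alveolar capillary bed, held 477, 354, 486 and 309 CPM in the same order. Arterial ECs were therefore the highest class in each of the 4 libraries, although their range overlapped that of adventitial fibroblasts, which in turn overlapped that of gCap ECs, while the arterial range lay above the gCap range. Smooth muscle cells held 184, 152, 114 and 89.3 CPM, below the lowest gCap value in each library. Lymphatic ECs ranged from 60.6 to 104 CPM, matrix fibroblasts from 0 to 65.8 CPM, venous ECs from 19.6 to 71.4 CPM and aerocyte (aCap) ECs, the capillary cells specialized in gas exchange, from 23.5 to 37.3 CPM. Matrix fibroblasts and aCap ECs were below the barcodes without a cell in each library, and venous ECs in all but the Hgf control. Alveolar type 1 (AT1) and type 2 (AT2) epithelial cells held 18.3 to 19.5 and 5.87 to 12.1 CPM. In club cells the Hgf iPCKO library stood at 58.5 CPM against 2.22 to 11 CPM in the other libraries, and 170 of the 202 UMIs behind that value came from 1 cell. Pericytes held 3, 21, 0 and 7 UMIs of Cxcl12 in the 4 libraries, and 8 of the 21 UMIs in the Bdnf iPCKO library came from 1 cell.

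**Figure D1:**
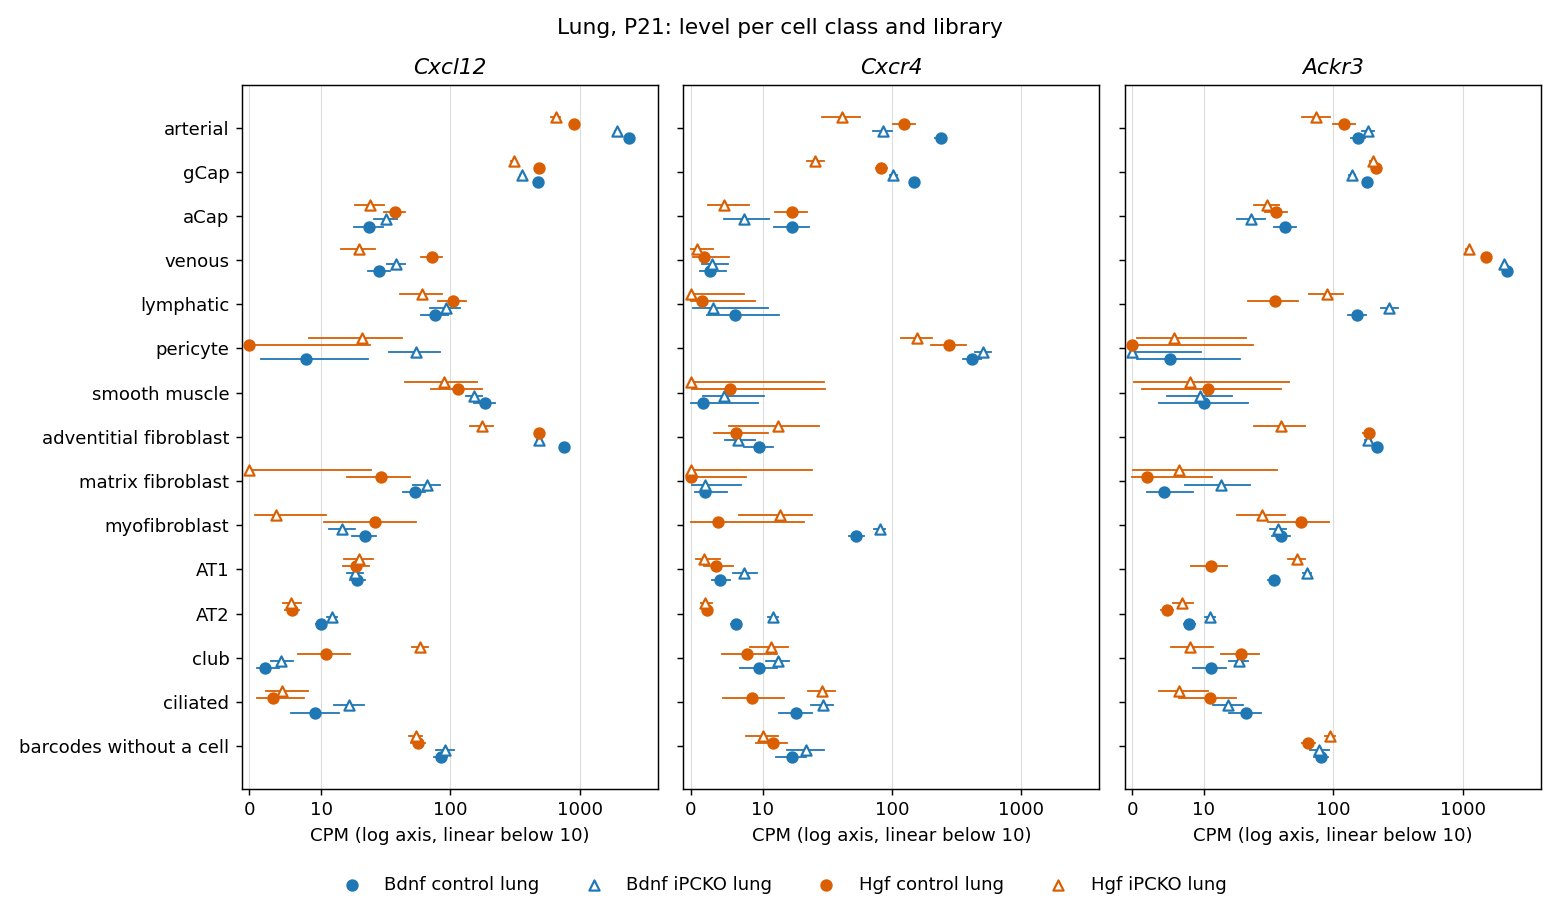
Levels of Cxcl12, Cxcr4 and Ackr3 in the cell classes of the 4 lung libraries, in CPM on an axis that is logarithmic above 10 CPM and linear below, with a point per library and bars for the exact Poisson 95% interval. Among the classes with at least 20 cells in all 4 libraries each gene has another leading class, arterial ECs for Cxcl12 (652 to 2402 CPM), pericytes for Cxcr4 (156 to 506 CPM) and venous ECs for Ackr3 (1114 to 2185 CPM).

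Class differences were tested with edgeR's quasi-likelihood test on the summed counts of the 4 lung libraries, with the library as a block and Benjamini-Hochberg adjustment over all genes. The libraries are the replicates in these tests, and the differences are on the log2 scale. The value after ± is an approximate standard error (SE) taken from the F statistic, which may be too small where few UMIs were counted. Cxcl12 was 1.92 ± 0.47 higher in arterial than in gCap ECs (adjusted p = 0.00144), where 20.6% of all genes passed at an adjusted p of 0.05. Against gCap ECs it was -3.31 ± 0.52 in venous ECs (adjusted p = 1.22e-06), -3.72 ± 0.53 in aCap ECs (adjusted p = 1.78e-07) and lower in lymphatic ECs as well (-2.33, adjusted p = 0.00036). The shares of all genes that passed these tests were 19.7% for venous, 21.6% for aCap and 27.5% for lymphatic against gCap ECs. Among fibroblasts, the adventitial class exceeded the matrix class, the lipid-bearing cells of the alveolar wall, by 3.8 ± 0.57 (adjusted p = 5.22e-07; 25.1% of genes passed). Pericytes were below smooth muscle cells by -2.81 ± 0.77 (adjusted p = 0.00472; 22.2% of genes passed), a call that rested on the Bdnf control library, without which the adjusted p was 0.0517, and it was also lost with classes from Leiden clusters (0.10, adjusted p = 0.934). Mesothelial cells were -4.31 ± 1.52 against matrix fibroblasts (adjusted p = 0.0332), from the Bdnf libraries alone, and this call was lost without either of them (adjusted p = 0.14 and 0.285). Myofibroblasts (-1.47, adjusted p = 0.115) and pericytes (-1.05, adjusted p = 0.466) against matrix fibroblasts did not pass, although the former did without the Hgf iPCKO library (adjusted p = 0.0194), with classes from Leiden clusters (adjusted p = 0.00204) and without a low-count filter (adjusted p = 1.63e-07), and the latter without the filter (adjusted p = 0.009).

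Cxcr4 had another order. Among the classes with at least 20 cells in all 4 lung libraries it was highest in pericytes, with 418 CPM (160 UMIs in 97 cells) in the Bdnf control, 506 CPM (196 UMIs in 122 cells) in the Bdnf iPCKO mutant, 278 CPM (43 UMIs in 83 cells) in the Hgf control and 156 CPM (53 UMIs in 212 cells) in the Hgf iPCKO mutant. Among these classes pericytes led in every library, and the Hgf iPCKO library was the lowest of the 4. Arterial ECs followed with 239, 84.8, 125 and 41.1 CPM, and gCap ECs with 148, 103, 83.0 and 25.7 CPM. These 2 endothelial classes overlapped each other, and the upper arterial value lay within the pericyte range. Myofibroblasts, the contractile cells of the growing septa, held 53.1 and 80.9 CPM in the Bdnf libraries but 3.74 CPM (1 UMI) and 13.6 CPM (11 UMIs) in the Hgf libraries, so that the 2 pairs of libraries did not overlap. Venous ECs held 0.853 to 2.95 CPM, lymphatic ECs 0 to 6.14 CPM, smooth muscle cells 0 to 5.41 CPM and matrix fibroblasts 0 to 1.97 CPM, all below the barcodes without a cell of the lung. The few macrophages that escaped the depletion, 5 to 20 per library, held 168 to 327 CPM, and the 20 B cells of the Hgf control held 364 CPM (42 UMIs).

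Pericytes exceeded matrix fibroblasts in Cxcr4 by 7.79 ± 0.68 on the log2 scale (adjusted p = 2.13e-13, edgeR's quasi-likelihood test with Benjamini-Hochberg adjustment), where 19.0% of all genes passed, and smooth muscle cells by 6.49 ± 0.68 (adjusted p = 4.29e-11). Matrix fibroblasts held 6 UMIs of Cxcr4 and smooth muscle cells 8 UMIs in all 4 libraries together, so the size of both differences depends on the prior count of the fit. Myofibroblasts were 5.04 ± 0.77 above matrix fibroblasts (adjusted p = 9.61e-07; 20.1% of genes passed). Adventitial fibroblasts exceeded matrix fibroblasts by 2.76 ± 0.95 (adjusted p = 0.0252), which was lost without the Bdnf control (adjusted p = 0.165) or without the Hgf control (adjusted p = 0.0645), and with classes from Leiden clusters (-0.06, adjusted p = 0.978). Within the endothelium, venous ECs were -5.21 ± 0.50 (adjusted p = 4.67e-12), lymphatic ECs -4.82 ± 0.65 (adjusted p = 2.23e-08) and aCap ECs -2.77 ± 0.38 (adjusted p = 1e-07) against gCap ECs. The difference of 0.62 ± 0.32 between arterial and gCap ECs did not pass (adjusted p = 0.194), although it did without a low-count filter (adjusted p = 0.0318).

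Ackr3 was highest in venous ECs, with 2185 CPM in the Bdnf control, 2082 CPM in the Bdnf iPCKO mutant, 1508 CPM in the Hgf control and 1114 CPM in the Hgf iPCKO mutant. These values did not overlap with any other lung class. The next classes overlapped one another, with 141 to 214 CPM in gCap ECs, 74.0 to 185.5 CPM in arterial ECs, 35.2 to 272 CPM in lymphatic ECs and, in adventitial fibroblasts, 216, 186 and 187.5 CPM in the first 3 libraries and 39.5 CPM in the Hgf iPCKO mutant. Mesothelial cells, the lining of the lung surface, were numerous enough in the Bdnf libraries alone and held 124 and 98.5 CPM. AT1 cells held 34.7, 62.9, 11.2 and 52.1 CPM, with the Hgf control the lowest. Myofibroblasts with 28.4 to 56.1 CPM and aCap ECs with 23.3 to 42.7 CPM overlapped the AT1 range, and all 3 classes were below the barcodes without a cell in each library. Smooth muscle cells held 8.12 to 10.8 CPM, AT2 cells 4.83 to 11.2 CPM and matrix fibroblasts 2.07 to 13.6 CPM. In lung pericytes Ackr3 amounted to 4 UMIs in all, 2 among the 97 cells of the Bdnf control, 0 among the 122 cells of the Bdnf iPCKO mutant, 0 among the 83 cells of the Hgf control and 2 among the 212 cells of the Hgf iPCKO mutant.

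On the log2 scale, Ackr3 was 3.24 ± 0.34 higher in venous than in gCap ECs (adjusted p = 7.25e-11, edgeR's quasi-likelihood test with Benjamini-Hochberg adjustment) and -2.44 ± 0.35 in aCap against gCap ECs (adjusted p = 2.72e-07). The arterial (-0.44 ± 0.33, adjusted p = 0.395) and lymphatic (-0.60, adjusted p = 0.209) differences from gCap ECs did not pass, although without the Bdnf iPCKO library the lymphatic one did (-1.29, adjusted p = 0.0166). Without a low-count filter both the arterial (adjusted p = 0.0283) and the lymphatic difference (adjusted p = 0.00107) passed. Adventitial fibroblasts exceeded matrix fibroblasts by 5.08 ± 0.54 (adjusted p = 6.58e-11), mesothelial cells did so by 3.98 ± 0.64 (adjusted p = 1.97e-06; 22.5% of genes passed), and myofibroblasts by 2.56 ± 0.60 (adjusted p = 0.000984), the last call being lost without the Bdnf control (adjusted p = 0.0711). With classes from Leiden clusters the myofibroblast (adjusted p = 0.97) and mesothelial (adjusted p = 0.0826) calls were lost. The differences of pericytes from matrix fibroblasts (-1.17, adjusted p = 0.646) and from smooth muscle cells (-1.77, adjusted p = 0.385) did not pass, with 4 UMIs behind the pericyte level. Altogether 19 of the 27 lung differences of the 3 genes passed, against 22.0% of all genes over the same 9 contrasts.

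Detection of the 3 genes in the same lung ECs was counted next. Each cell was thinned to 1500 UMIs for this count, which left out no gCap EC of the Bdnf libraries but 888 of 2555 in the Hgf control and 1397 of 3356 in the Hgf iPCKO library. Among gCap ECs, Cxcr4 was found in 26%, 23.2%, 11.7% and 7.65% of the cells with a Cxcl12 UMI in the Bdnf control, Bdnf iPCKO, Hgf control and Hgf iPCKO libraries, and in 12.1%, 9.08%, 7.53% and 1.82% of the cells without one. Arterial ECs showed the same direction in all 4 libraries, with 30.1% against 10.0% in the Bdnf control. For Ackr3, a UMI was found in 13% of the gCap ECs with Cxcr4 against 20.5% of the rest, 10.2% against 17.1%, 16.8% against 25.3% and 17.5% against 22.4% in the same order of libraries. In arterial ECs the shares were 11.9% against 19.3% and 10.9% against 21.8% in the Bdnf libraries, but 14.8% against 14.9% in the Hgf control and 12.5% against 10.3% in the Hgf iPCKO library, where a single cell held both. These shares are descriptions within libraries, since cells of 1 library are not replicates.

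In the cortex, Cxcl12 was highest in fibroblasts, with 1464 CPM in the Nodal control and 1166 CPM in the Nodal iPCKO mutant. Capillary ECs followed with 1312 and 928.5 CPM, a range that overlapped that of fibroblasts. Arterial ECs held 396 and 252.5 CPM and pericytes 70.4 and 63.3 CPM, below the 211 CPM of the lowest barcodes without a cell. In the Nodal iPCKO library, 44 of the 153 UMIs of pericytes came from 1 cell. Venous ECs with 52.5 and 27.2 CPM, smooth muscle cells with 43.6 and 22.4 CPM, microglia with 13.4 and 3.20 CPM and astrocytes with 6.18 and 3.51 CPM were lower still. The control value was the higher one in each of these classes, and in microglia 49 of the 75 UMIs of the control came from 1 cell. In the barcodes without a cell the control was the higher one as well, at 311 against 211 CPM. Against capillary ECs, Cxcl12 was -1.78 ± 0.15 in arterial ECs (adjusted p = 2.51e-08) and -4.83 ± 0.20 in venous ECs (adjusted p = 8.68e-12), by edgeR's quasi-likelihood test with Benjamini-Hochberg adjustment on the log2 scale. The shares of all genes that passed were 20.7% for arterial and 20.9% for venous against capillary ECs. Pericytes were -3.93 ± 0.25 against ECs (adjusted p = 1.29e-13; 38.2% of genes passed), and fibroblasts 4.26 ± 0.25 above pericytes (adjusted p = 8.25e-14; 28.7% of genes passed). Smooth muscle cells against pericytes (-0.97 ± 0.35, adjusted p = 0.0615) and microglia against astrocytes (0.71, adjusted p = 0.061) did not pass. Without a low-count filter both did (adjusted p = 0.00281 and 0.0151), and the microglial difference also passed with median-of-ratios size factors (adjusted p = 0.0426).

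**Figure D2:**
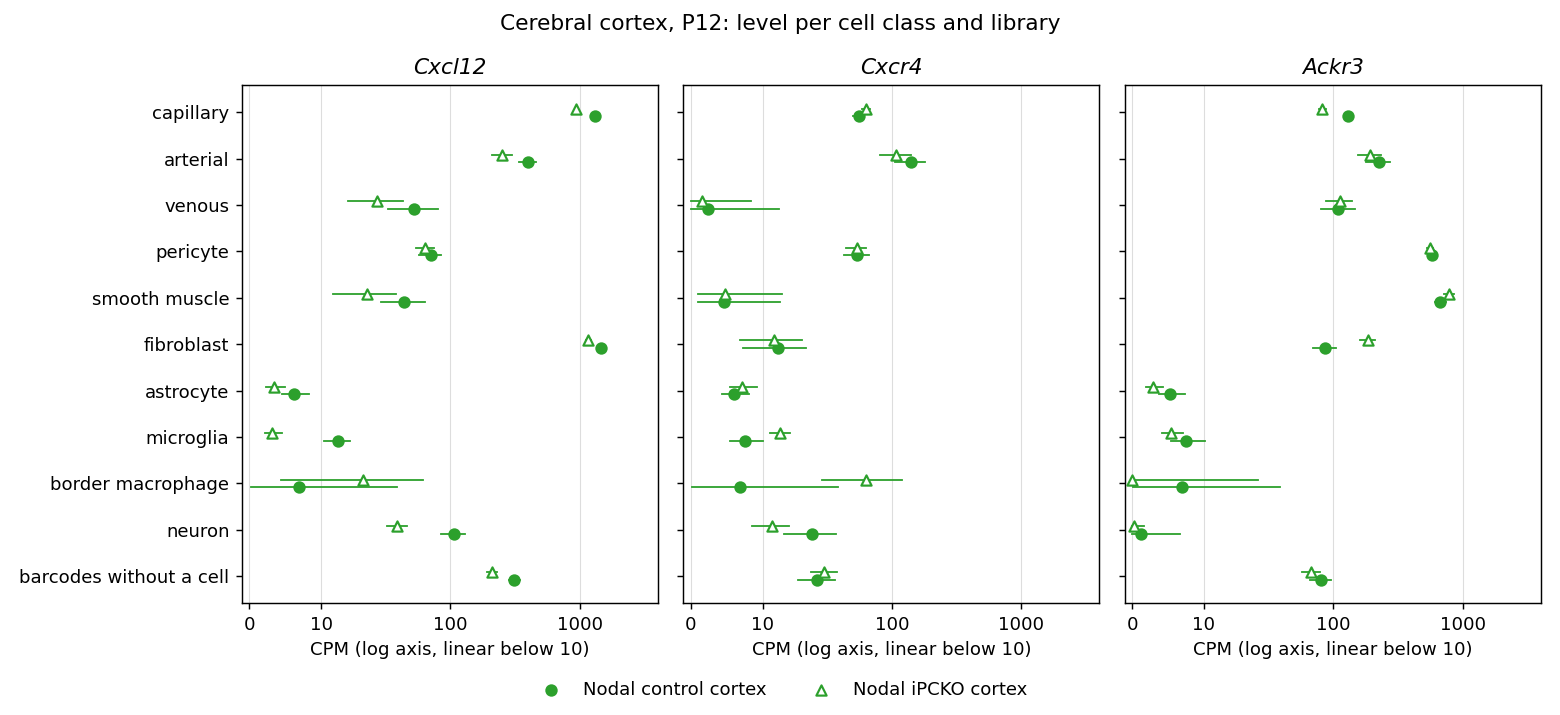
Levels of Cxcl12, Cxcr4 and Ackr3 in the cell classes of the 2 cortex libraries, in CPM on an axis that is logarithmic above 10 CPM and linear below, with a point per library and bars for the exact Poisson 95% interval. Cxcl12 leads in fibroblasts and capillary ECs, Cxcr4 in arterial ECs (108 to 139 CPM), and Ackr3 in smooth muscle cells (672 to 781 CPM) and pericytes (564 to 577 CPM).

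Cortical Cxcr4 was highest in arterial ECs, with 139 CPM in the Nodal control and 108 CPM in the Nodal iPCKO mutant. Capillary ECs held 55.5 and 63.4 CPM and pericytes 53.6 and 53.4 CPM, so that the pericyte values lay just below the capillary range. Fibroblasts (13.1 and 12.2 CPM), microglia (7.51 and 13.7 CPM), astrocytes (6.04 and 7.13 CPM), smooth muscle cells (4.68 and 4.81 CPM) and venous ECs (2.39 and 1.51 CPM) were below the barcodes without a cell of their library. Arterial ECs exceeded capillary ECs by 1.06 ± 0.19 (adjusted p = 0.000419, edgeR's quasi-likelihood test with Benjamini-Hochberg adjustment, log2 scale), whereas venous ECs were -4.96 ± 0.52 (adjusted p = 9.6e-07), from 2 UMIs in both libraries. The size of the venous difference depends on the prior count of the fit, and its SE may be too small. The difference between pericytes and ECs did not pass (-0.44 ± 0.23, adjusted p = 0.149). Smooth muscle cells were -3.36 ± 0.53 against pericytes (adjusted p = 2.16e-05; 14.4% of genes passed) and fibroblasts -2.09 ± 0.35 (adjusted p = 2.58e-05). Microglia exceeded astrocytes by 0.81 ± 0.28 (adjusted p = 0.0129), a contrast in which 69.2% of all genes passed, and the adjusted p of DESeq2 was 0.0679.

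Sprouting vessels carry tip cells at their front, but the tip class held 1 cell in the Nodal control and 3 cells in the Nodal iPCKO mutant. The 3 cells held 44 UMIs of Cxcr4, and the single control cell held 0. Cortical ECs, thinned to 1500 UMIs, were therefore split by how many of the 6 tip markers they contained, a split that was chosen after the values of the tip class were seen. The cells of the tip class were not left out, so the split is not independent of the values that prompted it. Cxcr4 was higher where more markers were found, at 52.3 CPM in ECs with 0 markers, 79.9 CPM with 1 and 125.5 CPM with 2 or more in the control, and at 63.6, 78.5 and 218 CPM in the mutant. Cxcl12 took the other direction, with 1954, 708 and 439 CPM in the control and 1406, 631 and 277 CPM in the mutant. For Ackr3 the values were 129, 142 and 125.5 CPM in the control and 91.9, 64.1 and 105 CPM in the mutant, with no order shared by the libraries. The groups held 523, 192 and 85 cells in the control and 849, 416 and 171 cells in the mutant. The control values of Cxcr4 rested on 41, 23 and 16 thinned UMIs. In both libraries the Poisson intervals of Cxcr4 for 0 and 1 marker overlapped.

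**Figure D3:**
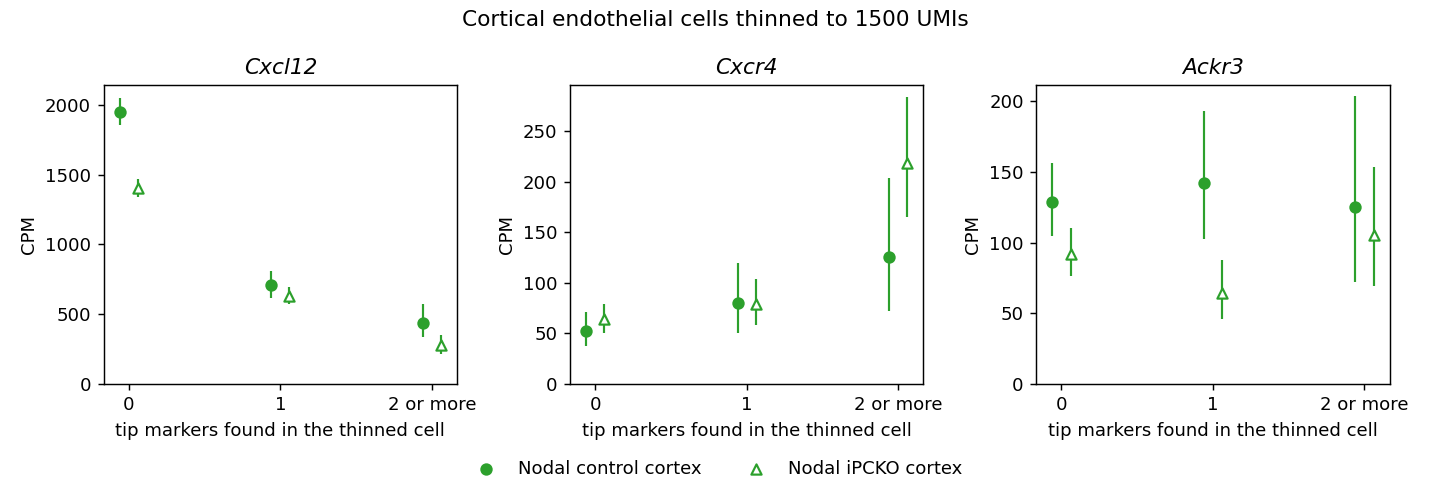
Levels of the 3 genes in cortical ECs thinned to 1500 UMIs, in CPM with exact Poisson 95% intervals, by the number of tip markers found in the cell and by library. In both libraries Cxcr4 is higher and Cxcl12 lower in cells with more markers, although the Cxcr4 intervals for 0 and 1 marker overlap. The split was chosen after the values of the tip class were seen, and the cells of that class are included.

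In the cortex, Ackr3 was highest in the mural classes. Smooth muscle cells held 672 CPM in the Nodal control and 781 CPM in the Nodal iPCKO mutant, and pericytes held 577 and 564 CPM, from 2225 UMIs in both libraries. The ranges did not overlap, but the difference of 0.47 ± 0.23 on the log2 scale did not pass (adjusted p = 0.21, edgeR's quasi-likelihood test with Benjamini-Hochberg adjustment). The smooth muscle class held 18240 to 18560 CPM of its own marker list and 17460 to 19130 CPM of the pericyte list. Whether the latter came from pericytes or from genes that both mural classes express was not tested, nor was its part in the Ackr3 level.

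Arterial ECs held 224 and 191 CPM of Ackr3, capillary ECs 129 and 82.3 CPM, venous ECs 110 and 112 CPM, and fibroblasts 85.7 and 185 CPM. The capillary, venous and fibroblast ranges overlapped one another, and the arterial range lay above them. Oligodendrocyte precursors, the glial cells that give rise to myelin, held 5 UMIs in 4 cells in the control and 23 UMIs in 24 cells in the mutant, the latter at 172 CPM. Microglia (7.51 and 5.47 CPM), astrocytes (5.34 and 2.92 CPM) and neurons (1.2 and 0.288 CPM) were far below the barcodes without a cell. Pericytes exceeded ECs by 2.21 ± 0.23 (adjusted p = 5.27e-09, same test) and fibroblasts were -2.08 ± 0.25 against pericytes (adjusted p = 9.8e-08). Arterial ECs exceeded capillary ECs by 1.02 ± 0.17 (adjusted p = 0.000194), and venous ECs differed from capillary ECs by 0.16 ± 0.19 (adjusted p = 0.634). Arterial ECs also held UMIs of the pericyte marker list, in amounts that differed between the libraries, and their part in the arterial Ackr3 level was not tested. Microglia against astrocytes, at 0.73, did not pass (adjusted p = 0.0788). Of the 18 cortical differences of the 3 genes 12 passed, against 34.2% of all genes over the same 6 contrasts.

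Pericytes of the 2 organs differed in both receptors. Between lung and cortex pericytes, Ackr3 was -7.55 ± 0.42 on the log2 scale (adjusted p = 4.53e-07) and Cxcr4 was 2.56 ± 0.41 higher in the lung (adjusted p = 0.000531), in edgeR's quasi-likelihood test of 4 lung against 2 cortex libraries with Benjamini-Hochberg adjustment. In that contrast 40.7% of all genes passed. The lung side of the Ackr3 difference holds 4 UMIs in all, so its size depends on the prior count of the fit, and its SE may be too small. The exact Poisson 95% intervals of the lung libraries reached up to 18.9, 9.53, 23.8 and 21.3 CPM of Ackr3 in the Bdnf control, Bdnf iPCKO, Hgf control and Hgf iPCKO pericytes, all below the lowest cortex value of 564 CPM. The 4 lung values of Cxcr4, from 156 to 506 CPM, all lay above the cortex values of 53.4 and 53.6 CPM. Cxcl12 was -1.60 ± 0.52 in lung pericytes (adjusted p = 0.0287), but this call was lost without any 1 of the Bdnf control (adjusted p = 0.064), the Nodal control (adjusted p = 0.117) or the Nodal iPCKO library (adjusted p = 0.103), and in DESeq2 (adjusted p = 0.0693), and with classes from Leiden clusters it passed in the other direction (0.94, adjusted p = 0.0232). Organ, age, mouse line, dissociation and the depletion of CD45+ cells differed together, and their parts cannot be told apart. Both cortex libraries came from the Nodal line, and the test takes a mutant library and its control as independent. An exact two-sided permutation test of 4 against 2 libraries cannot go below 0.1333.

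**Figure D4:**
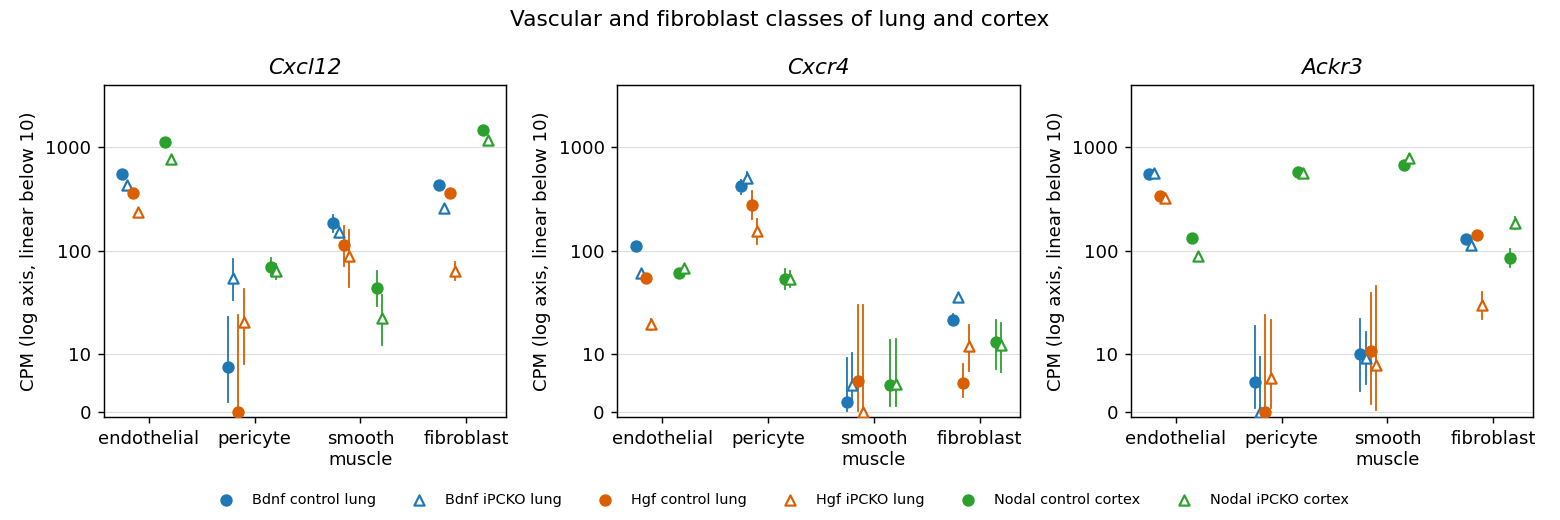
Levels of the 3 genes in the 4 cell classes shared by lung and cortex, in CPM on an axis that is logarithmic above 10 CPM and linear below, with a point per library and bars for the exact Poisson 95% interval. Ackr3 lies at 564 to 781 CPM in the cortical mural classes and at 0 to 10.8 CPM in those of the lung, while Cxcr4 is higher in lung pericytes than in cortical pericytes.

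Smooth muscle cells showed the same direction for Ackr3, with 8.12 to 10.8 CPM in the lung against 672 and 781 CPM in the cortex (-6.18 ± 0.32, adjusted p = 7.16e-07, edgeR's quasi-likelihood test with Benjamini-Hochberg adjustment; 21.7% of genes passed). Their Cxcl12 was 2.12 ± 0.38 higher in the lung (adjusted p = 0.00169), a call lost without the Nodal iPCKO library (adjusted p = 0.0625), while Cxcr4 fell under the low-count filter. In ECs as a whole the direction of Ackr3 was the other one, 1.74 ± 0.30 higher in the lung (adjusted p = 0.00362; 42.1% of genes passed), with an adjusted p of 0.0521 without the Nodal iPCKO library. Lung ECs held 550.3, 562, 335 and 325 CPM of Ackr3 and cortical ECs 133 and 88.9 CPM, and the groups did not overlap. Venous ECs held 21686 of the 34306 Ackr3 UMIs of lung ECs and 120 of the 2700 of cortical ECs. For Ackr3, venous ECs and gCap against capillary ECs went with the pooled direction. Arterial ECs went against it, with 74.0 to 185.5 CPM in the lung and 191 to 224 CPM in the cortex. Arterial Cxcl12 was higher in the lung (652 to 2402 CPM) than in the cortex (252.5 to 396 CPM). Endothelial Cxcl12 was -1.52 ± 0.30 (adjusted p = 0.00596), with an adjusted p of 0.0627 without the Nodal control, and Cxcr4 did not pass (-0.34 ± 0.53, adjusted p = 0.628). In fibroblasts, for which the adventitial, matrix and myofibroblast classes of the lung were summed in shares that differed between libraries (adventitial cells were 623 of 2146 in the Bdnf control and 136 of 716 in the Hgf iPCKO library), Cxcl12 was -2.04 ± 0.57 (adjusted p = 0.029; 28.8% of genes passed), a call lost without the Bdnf iPCKO (adjusted p = 0.0616), the Nodal control (adjusted p = 0.167) or the Nodal iPCKO library (adjusted p = 0.122), while Cxcr4 (0.80 ± 0.68, adjusted p = 0.408) and Ackr3 (-0.17 ± 0.55, adjusted p = 0.836) did not pass. Where a cortex library is left out, the lone cortex sample is assumed to vary like the lung samples. In total 8 of 11 organ differences passed, against 34.7% of all genes over the 4 classes.

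The marker lists of other cells were compared beside these results. Lung pericytes held 258 to 837 CPM of the endothelial marker list and cortical pericytes 162 to 172 CPM, and the part of this difference in the receptor levels was not tested. The smooth muscle list stood at 876 to 2003 CPM in lung pericytes and at 1077 to 1164 CPM in cortical pericytes, 2 ranges that overlap. The lists of the pericyte class itself differ between the organs and are not set beside each other.

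Shares of cells with a UMI were compared at an equal depth of 1500 UMIs. In lung pericytes a Cxcr4 UMI was found in 41.2% (68.0% unthinned), 45.1% (61.5%), 29.6% (37.3%) and 19.5% (19.3%) of the cells of the Bdnf control, Bdnf iPCKO, Hgf control and Hgf iPCKO libraries, at median depths of 3539, 2915.5, 1808 and 1523.5 UMIs. Thinning left out 29 shallower pericytes in the Hgf control and 99 in the Hgf iPCKO library. Matrix fibroblasts, which served as a class with little Cxcr4, had 0.212%, 0.649%, 0% and 0%. In cortical pericytes the shares were 6.67% (21.6%) and 8.85% (21.9%), against 1.06% and 1.05% in astrocytes.

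For Ackr3, 43.5% (69.8%) and 42.5% (64.6%) of cortical pericytes and 54.3% (84.3%) and 54.9% (80.5%) of cortical smooth muscle cells had a UMI, against 1.06% and 0.524% of astrocytes. Median depths were 5551 and 5669.5 UMIs in pericytes, 8838 and 7089.5 in smooth muscle cells and 10510.5 and 11206 in astrocytes. Of lung pericytes, 2.06%, 0%, 0% and 0.885% had a UMI, beside 0.850%, 0.925%, 0.365% and 0.680% of AT2 cells. For the 0 of 122 and 0 of 54 pericytes a limit of 3 cells stands at 2.46% and 5.56%. This limit lies below the upper end of an exact 95% interval. In lung venous ECs, 88.0% (96.7%), 86.4% (95.3%), 81.1% (91.3%) and 72.2% (87.3%) of the cells had an Ackr3 UMI.

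In lung arterial ECs, 74.0% (85.9%), 70.9% (80.7%), 54.1% (71.0%) and 49.7% (59.9%) of the cells had a Cxcl12 UMI. In the cortex, 68.3% (93.9%) and 67.0% (90.9%) of fibroblasts and 51.1% (69.3%) and 44.3% (59.5%) of capillary ECs had one, against 0.455% and 0.917% of astrocytes. Thinned cortical pericytes with a Cxcr4 UMI had Ackr3 in 41.2% and 50.0% of cases, and those without in 43.7% and 41.7%, so that no order was shared by the libraries. Of cortical ECs with a Cxcr4 UMI, 28.6% had Ackr3 in the control and 16.9% in the mutant, against 15.1% and 10.4% of the rest.

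Each mutant was set beside its control, and the 2 control lungs beside each other as an example of the difference between libraries without a deletion. The Bdnf and Hgf controls came from different lines and differed in median depth (7165.5 and 3975 UMIs per cell) and in the UMI minimum (1500 and 700). A mutant and its own control share line and minimum, so the ratio of the controls is only a rough reference for a pair. Ratios were counted in classes where both libraries together held at least 20 UMIs of the gene, and the number past 1.5-fold was taken. The Bdnf pair had 15 of 38 such ratios, with 11 higher in the mutant and 4 lower, where 18.6% of all gene ratios passed 1.5-fold. Without the cells that Scrublet called doublets the Bdnf pair had 9 higher and 7 lower, and with classes from Leiden clusters 6 higher and 4 lower. The Hgf pair had 19 of 29, with 4 higher and 15 lower (33.8% of all). With classes from Leiden clusters the Hgf pair had 11 higher and 12 lower, and with at least 3000 UMIs per barcode 7 higher and 9 lower. The Nodal pair had 11 of 24, with 2 higher and 9 lower (18.1% of all). The Hgf control over the Bdnf control, with no deletion in either, had 21 of 34, with 4 higher and 17 lower (31.1% of all). The Bdnf and Hgf ratios share their control libraries with this last ratio. All these counts include classes whose levels lay below the barcodes without a cell, where the part of free RNA was not tested. Among them were Cxcr4 in AT2 cells of the Bdnf pair and Ackr3 in AT1 cells of both lung pairs, as well as Cxcl12 in cortical microglia, astrocytes and neurons. The numbers of higher and lower ratios therefore do not describe only the classes that lead in a gene.

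**Figure D5:**
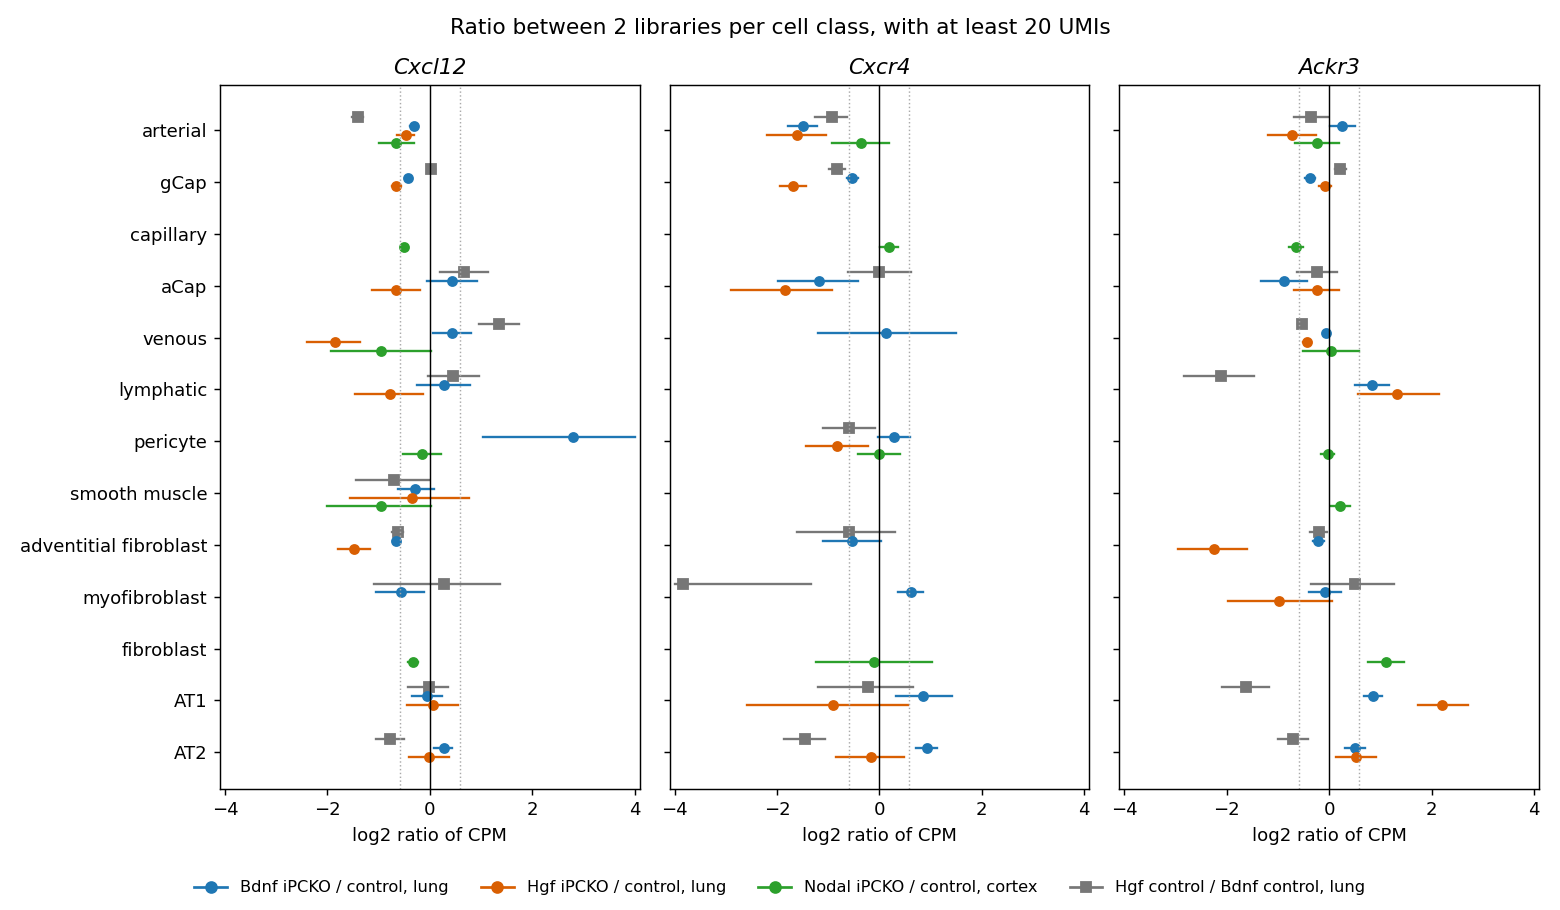
Log2 ratios of the 3 genes per cell class for the Bdnf, Hgf and Nodal pairs (mutant over control) and for the 2 control lungs (Hgf control over Bdnf control), with conditional exact 95% intervals, cut at the edge of the axis. Cxcr4 ratios of arterial and gCap ECs lie below 0 in the Bdnf and Hgf pairs and in the ratio of the controls.

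The receptor Cxcr4 was lower by more than 1.5-fold in arterial ECs of both lung mutants and in gCap ECs of the Hgf mutant, while the gCap ratio of the Bdnf pair was short of 1.5-fold. In arterial ECs the log2 ratio was -1.50 (95% interval -1.78 to -1.22) for Bdnf and -1.61 (-2.20 to -1.05) for Hgf, and between the controls it was -0.93. Over the alternatives the Bdnf value went from -2.10 with at least 3000 UMIs per barcode to -1.22 with the margin of the gate doubled. The Hgf value went from -2.27 with the margin of the gate doubled to -1.31 with classes from Leiden clusters. In gCap ECs the ratios were -0.53 for Bdnf and -1.69 (-1.95 to -1.44) for Hgf, against -0.83 between the controls. In aCap ECs they were -1.18 and -1.85, against 0.0 between the controls, but the Bdnf value was -0.22 and the Hgf value -3.90 with classes from Leiden clusters, and the Hgf value was -0.07 with at least 3000 UMIs per barcode. In all lung ECs together the ratio was -0.86 (-0.96 to -0.77) for Bdnf and -1.48 (-1.68 to -1.29) for Hgf, beside -1.05 between the controls. In pericytes, where Cxcr4 is highest, the ratio was 0.28 (-0.03 to 0.59) for Bdnf and -0.83 (-1.44 to -0.22) for Hgf, with -0.59 between the controls, and with the margin of the cell gate doubled the Bdnf value was 1.04 and the Hgf value -0.36. Ciliated cells of the Hgf mutant (1.76), and AT2 cells (0.92) and myofibroblasts (0.61) of the Bdnf mutant, were higher, and between the controls the same classes differed by -1.10, -1.46 and -3.83. The AT2 levels were below the barcodes without a cell, and the myofibroblast ratio was short of 1.5-fold with at least 3000 UMIs per barcode (0.52) and with classes from Leiden clusters (0.53). In the cortex, Cxcr4 was close to the control in pericytes (-0.01) and capillary ECs (0.19), at -0.37 (-0.93 to 0.19) in arterial ECs and at 0.87 (0.36 to 1.41) in microglia, where it was 0.24 with classes from Leiden clusters and both levels were below the barcodes without a cell.

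The ligand Cxcl12 was within 1.5-fold of the control in its leading classes, at -0.31 (-0.38 to -0.25) in arterial ECs for Bdnf, -0.47 (-0.63 to -0.31) in arterial ECs for Hgf and -0.33 (-0.43 to -0.23) in cortical fibroblasts for Nodal. With the margin of the cell gate doubled the Nodal ratio turned to 0.1, and the Bdnf arterial ratio went past 1.5-fold. The arterial ratio of the controls, -1.41, was larger than either lung value. In gCap ECs the ratios were -0.43 for Bdnf and -0.65 for Hgf, with 0.03 between the controls. The Hgf gCap value was short of 1.5-fold with median-of-ratios size factors (-0.57) and with the margin of the gate doubled (-0.45). In adventitial fibroblasts they were -0.65 and -1.48 (-1.80 to -1.17), with -0.62 between the controls, and the Hgf value was -0.31 with classes from Leiden clusters. In this class the adventitial marker list stood at 9950.0 CPM in the Hgf control lung and 5487 CPM in the Hgf iPCKO lung and the matrix fibroblast list at 1371 and 2858 CPM, and their part in the result was not tested. Venous ECs of the Hgf mutant stood at -1.86, where the controls differed by 1.35 in the other direction, and the ratio was -0.98 with classes from Leiden clusters and -3.51 with the margin of the gate doubled. In the cortex Cxcl12 was lower in arterial ECs (-0.65) and in neurons (-1.46), while the capillary ratio (-0.50) was short of 1.5-fold. The barcodes without a cell were also lower, with 311 CPM of Cxcl12 in the Nodal control and 211 CPM in the Nodal iPCKO library. Both neuron levels lay below them, and the part of free RNA in the cortical ratios was not tested. The microglial ratio of -2.07 rested largely on the single control cell with 49 UMIs. It was -0.59 without the cells that Scrublet called doublets and -0.93 with the margin of the gate doubled. Cortical arterial ECs held 109.5 CPM of the pericyte marker list in the Nodal control cortex and 1511 CPM in the Nodal iPCKO cortex, and the part of this difference in the arterial ratios was not tested. Pericytes of the Bdnf pair had a ratio of 2.79 (1.05 to 5.18) from 3 against 21 UMIs, and of -0.44 with classes from Leiden clusters.

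The scavenging receptor Ackr3 was within 1.5-fold of the control in the classes where it leads, with ratios of -0.07 (-0.11 to -0.03) in venous ECs for Bdnf, -0.44 (-0.52 to -0.36) for Hgf, 0.22 (0.03 to 0.41) in cortical smooth muscle cells and -0.03 (-0.16 to 0.09) in cortical pericytes for Nodal. Between the controls the venous ratio was -0.53. AT1 cells were higher in both lung mutants, at 0.86 (0.68 to 1.04) for Bdnf and 2.21 (1.73 to 2.72) for Hgf, with -1.63 between the controls, at levels below the barcodes without a cell. Lymphatic ECs were higher as well, at 0.83 and 1.33, with -2.11 between the controls. With classes from Leiden clusters the Bdnf ratios of AT1 cells and of lymphatic ECs were both 0.50, short of 1.5-fold, and with the margin of the gate doubled the Hgf ratio of AT1 cells was 3.92. Ackr3 was lower in arterial ECs of the Hgf mutant (-0.72, -1.19 to -0.26), with -0.35 between the controls, and in aCap ECs of the Bdnf mutant (-0.88, -1.33 to -0.43), which were at -0.57 with classes from Leiden clusters. Club cells of the Hgf mutant stood at -1.25 (-2.02 to -0.51), with 0.77 between the controls. That ratio rested on 37 UMIs in the control (19.4 CPM) and 28 in the mutant (8.11 CPM), and 9 of the control UMIs came from 1 cell. Adventitial fibroblasts of the Hgf mutant were at -2.25 (-2.96 to -1.61), where the controls differed by -0.20. The part of the marker shift of that class in this result was not tested either. In the cortex Ackr3 was lower in capillary ECs (-0.65, -0.78 to -0.52, but short of 1.5-fold at -0.57 with classes from Leiden clusters and at -0.58 with the margin of the gate doubled) and higher in fibroblasts (1.11, 0.76 to 1.47) of the Nodal mutant, from 98 UMIs in 82 cells and 227 UMIs in 88 cells.

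Of 36 further genes of the pathway, 31 could be tested in the lung fit, 32 in the main cortex fit and 22 in the cortical endothelial fit. In venous against gCap ECs, where Ackr3 led, 7 were higher and 8 lower, beside 19.7% of all genes called, with a list median of 0.13 on the log2 scale beside -0.05 for all genes. The higher ones included Ackr1, another atypical chemokine receptor and a venous gene (5.47 ± 0.83, adjusted p = 1.23e-05, edgeR's quasi-likelihood test with Benjamini-Hochberg adjustment), and Foxc1, a transcription factor known to drive Cxcr4 and Cxcl12 (5.68 ± 0.29, adjusted p = 2.49e-21). The lower ones included the atypical receptors Ackr4 (-3.97) and Ackr2 (-2.47) and Dpp4, a protease that inactivates CXCL12 (-3.67). In arterial against gCap ECs 7 were higher and 6 lower, beside 20.6% of all genes, with a list median of -0.12 beside -0.1, with Foxc1 at 5.17 and the heparan sulfate carrier Sdc1 at 2.81 among the former, and Dpp4 (-2.42) and Ackr2 (-4.21) among the latter. Sox17, which is on the pathway list, is also a marker of the lung arterial class. Its level in this contrast is partly set by the cell gate and is no separate result.

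In lung pericytes against matrix fibroblasts, 6 of the 31 genes were higher and 6 lower, beside 19.0% of all genes, with a list median of 0.35 beside -0.08. The receptor kinase Grk3, which helps to switch CXCR4 off, was at 3.0, and the matrix protease Mmp2 at -5.73. In cortical pericytes against ECs, 11 of 32 were higher and 8 lower, beside 38.2% of all genes (median -0.02 beside -0.04), with Grk3 at 4.24 and the heparan sulfate carrier Sdc2 at 6.73, and with Dpp4 at -6.44 and Adm, a peptide that ACKR3 also binds, at -2.16. In venous against capillary cortical ECs, 4 of 22 were higher and 7 lower, beside 20.9% of all genes, with Ackr1 at 3.59 and Adm at -4.0. Between lung and cortex pericytes, 21 genes of the list could be tested, of which 6 were higher in the lung and 8 lower, beside 40.7% of all genes (median -0.33 beside 0.02). Grk3 (2.17), Grk5 (2.01) and the heparan sulfate carrier Sdc4 (2.53) were higher in the lung, and Rgs16, a brake on G-protein signaling (-6.72), Foxc1 (-7.50), Adm (-2.80) and the alternative ligand Mif (-2.32) were higher in the cortex. In smooth muscle cells Rgs16 (-6.98) and Ebf3, a transcription factor of CXCL12-rich stroma (-7.34), were among 6 of 25 genes lower in the lung, with 3 higher, beside 21.7% of all genes. In the mutant over control ratios of the leading classes of Cxcl12, the list had 6 genes higher and 2 lower of 26 in arterial ECs for Bdnf, 4 and 4 of 22 for Hgf, and 4 and 0 of 24 in cortical fibroblasts for Nodal, where 18.9%, 34.3% and 18.7% of all genes passed 1.5-fold. In lung pericytes, which lead in Cxcr4, 2 were higher and 1 lower of 18 for Bdnf and 2 and 2 of 14 for Hgf (25.7% and 36.8% of all genes). In lung venous ECs, which lead in Ackr3, the counts were 4 and 1 of 28 for Bdnf and 3 and 9 of 29 for Hgf (20.4% and 32.8% of all genes), and for Nodal they were 7 and 1 of 20 in cortical arterial ECs and 4 and 0 of 20 in cortical smooth muscle cells (23.1% and 20.8% of all genes).

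Genes with the most similar pattern were ranked by Pearson's r of the mean log2(CPM + 1) across 14 lung and 10 cortical classes, a description in which all points share the same libraries. In the lung the nearest genes to Cxcl12 were Igfbp4 (r = 0.846) and Atp1b3 (0.846), those to Cxcr4 were Ralgapa1 (0.783) and Nck2 (0.757), and those to Ackr3 were Prcp (0.899) and Serpina3g (0.863). In the cortex they were Cope (0.972) and Adm (0.911) for Cxcl12, Nus1 (0.866) and Unc5b (0.82) for Cxcr4, and Gm12854 (0.988) and S100a11 (0.978) for Ackr3. Of the cortical classes, Unc5b was highest in pericytes (395 CPM). Among themselves the 3 genes had r = 0.19 for Cxcl12 and Cxcr4, 0.55 for Cxcl12 and Ackr3 and -0.13 for Cxcr4 and Ackr3 in the lung, and 0.51, 0.49 and 0.16 in the cortex. These values were not ranked among all genes, and the nearest genes are the top of 7579 genes in the lung and 8181 in the cortex.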

How the data were processed

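The authors deposited estimated counts, that is UMIs per gene and barcode from STARsolo (STAR 2.7.10a, GRCm39, per the submitters' processing notes), in which reads that map to several genes were shared by expectation maximization, so that 8.5% to 9.95% of the entries are not whole. The matrices hold all barcodes. The depth per library was 33889545 to 186701379 UMIs. Barcodes with at least 1500 UMIs (700 in the Hgf libraries) were kept, those over 3 scaled median absolute deviations of mitochondrial share and the top 0.5% by UMIs were removed, and each cell took a class from 269 marker entries. Cells with 2 classes were left out as mixed, and doublets within the classes were not removed except in the alternative that used Scrublet. UMIs were summed per library and class with at least 20 cells, rounded and fitted with edgeR 4.0.16 (R 4.3.3), using the quasi-likelihood test with Benjamini-Hochberg adjustment over all genes kept at 0.05. The standard error is approximate, taken as the log2 difference over the root of the F statistic, and may be too small where few UMIs were counted. Intervals of CPM are exact Poisson, those of log2 ratios conditional exact, at 95%. Alternatives were DESeq2 1.42.0, other filters, normalizations, Scrublet, Leiden clusters and leaving out each library. The script was tested on simulated data. The 3 genes and all lists, including the marker and pathway lists, were chosen with earlier results of these data known. The genes named were the 3 members, some but not all of the passing genes of the pathway list, and the first 2 of the 5 genes nearest in pattern. Passing pathway genes without a name enter the counts alone. Symbols carried by more than 1 gene (147) were left out. Libraries pool 2 mice, and the differences tested between classes use libraries of different genotypes as replicates. The bead type of each library was not given in the sources used here.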

Additional observations from a re-analysis of the deposited data

Results flagged for a closer look

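All pairs of the 4 classes shared by the organs were compared for the 3 genes. The share of all genes with a change of sign was not computed, and the Ackr3 comparisons reuse the same pericyte and smooth muscle values, so they are not separate results. In 7 comparisons the difference between 2 cell classes within a library, on the log2(CPM + 1) scale, had one sign in all 4 lung libraries and the other sign in both cortex libraries. These differences of differences were set against an exact two-sided permutation test only, which cannot go below 0.1333 with 4 against 2 libraries, and no other test of them was run. Organ, age, mouse line, dissociation and CD45 depletion cannot be told apart. Cxcr4 in pericytes minus ECs was 1.89 to 3.02 in the lung and -0.36 to -0.17 in the cortex, a lung minus cortex difference of 2.81. Ackr3 in pericytes minus ECs was -9.14 to -5.56 in the lung and 2.11 to 2.65 in the cortex (difference -9.77), and in smooth muscle cells minus ECs -5.76 to -4.83 and 2.32 to 3.12 (difference -8.07). Ackr3 in fibroblasts minus pericytes was 2.17 to 7.14 in the lung and -2.74 to -1.60 in the cortex (difference 7.31), and in fibroblasts minus smooth muscle cells 1.77 to 3.58 and -2.96 to -2.07 (difference 5.61). Cxcl12 in fibroblasts, all 3 lung fibroblast classes summed, minus ECs was -1.87 to -0.03 in the lung and 0.38 to 0.61 in the cortex (difference -1.24), and in smooth muscle cells minus pericytes 1.47 to 6.84 and -1.45 to -0.68 (difference 4.76). The lung pericyte values of Ackr3 and Cxcl12 in these differences rest on 4 and 31 UMIs in all, and where a library holds 0 UMIs the size of the difference is set by the added 1. Adventitial fibroblasts alone were above ECs in Cxcl12 in 3 of the 4 lung libraries, so that the lung sign of the fibroblast difference depends on the summing. With classes from Leiden clusters the sign of the Cxcl12 difference between lung pericytes and smooth muscle cells turned in edgeR's test.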

How the results depend on the processing

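No paired analysis was possible because each genotype has 1 library and the labels give no replicate numbers, while the class contrasts within an organ keep the library as a block. Of 38, 29 and 24 ratios counted in the Bdnf, Hgf and Nodal pairs, doubling the margin of the cell gate left 20, 12 and 13, of which 9, 5 and 6 were past 1.5-fold. It also moved the log2 ratios of the leading classes to -0.77 for Cxcl12 in arterial ECs, 1.04 for Cxcr4 in pericytes and 0.11 for Ackr3 in venous ECs in the Bdnf pair, -0.31 for Ackr3 in venous ECs in the Hgf pair and 0.1 for Cxcl12 in fibroblasts in the Nodal pair. With classes from Leiden clusters, 4 of the 15 Bdnf ratios past 1.5-fold remained so, 8 fell short and 3 reversed, and of the 19 Hgf ratios 14 remained, 3 fell short and 2 reversed. Without Scrublet doublets, Cxcl12 ratios were -0.39 in club cells of the Hgf pair (2.41 before) and 0.01 in ciliated cells of the Bdnf pair (0.86 before), and the Cxcr4 ratio in AT1 cells of the Bdnf pair was 1.54 (0.86 before). With median-of-ratios size factors, venous Ackr3 was at 0.0 for Bdnf and -0.34 for Hgf. With at least 3000 UMIs per barcode, arterial Cxcl12 was at -0.41 for Bdnf and -0.3 for Hgf, and with classes from Leiden clusters the Hgf ratios were -0.17 for arterial Cxcl12 and -0.28 for venous Ackr3. Without the mitochondrial and upper filters the Nodal ratio of Cxcl12 in fibroblasts was -0.45. Leaving out 1 library in turn gave 15 to 20 passing lung differences and 4 to 8 passing organ differences. Without a low-count filter 24 of 27 lung and 15 of 18 cortex differences passed. With cluster classes 7 of 12 cortex differences passed, since arterial and venous against capillary ECs could not be fitted. Signs turned with cluster classes in the lung for Cxcr4 in adventitial against matrix fibroblasts (-0.06), for Ackr3 (0.70) and Cxcl12 (0.93) in pericytes against matrix fibroblasts and for Ackr3 (0.81) and Cxcl12 (0.10) in pericytes against smooth muscle cells, and for Cxcl12 in lung against cortex pericytes (0.94). They turned without the Bdnf iPCKO library for Ackr3 in pericytes against matrix fibroblasts (-2.01 to 0.17 over the libraries left out) and Cxcr4 in mesothelial against matrix fibroblasts (-0.29 to 0.77, and 0.06 with no library block), without a low-count filter for Ackr3 in venous against capillary ECs (-0.02), without the Hgf iPCKO library for organ differences of Cxcr4 in ECs (0.01) and Ackr3 in fibroblasts (0.11), and without the Nodal iPCKO library for the latter (-0.62 to 0.49 over all libraries left out). The cause of these shifts was not tested. The tip contrast was not run, with 1 and 3 cells, the mesothelial contrast used only the Bdnf libraries, and cortex contrasts have no value without 1 library. Depth limits Ackr3 and Cxcl12 in lung pericytes, with 4 and 31 UMIs.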

Other observations

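Some further classes were small or held low levels of the genes. Cortical neurons held 106 and 38.6 CPM of Cxcl12 in the Nodal control and the Nodal iPCKO mutant, below the barcodes without a cell. Neuroblasts, the migrating neuronal precursors, held 4 UMIs of Ackr3 in 11 cells (32.6 CPM) and 2 UMIs in 7 cells (49.9 CPM). Border macrophages, which sit at the surfaces and vessels of the brain, held 10 UMIs of Cxcr4 in both cortex libraries together. In the Hgf iPCKO lung, 12 mesothelial cells held 12 UMIs of Ackr3 (221 CPM, exact Poisson 95% interval 114 to 387).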
